A study of Rattus norvegicus with 11 samples.

Results

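Mitochondrial ATP synthase is the rotary machine of the inner mitochondrial membrane that makes ATP from ADP and phosphate, driven by protons flowing back into the matrix. Its F1 part is a catalytic head of alpha and beta subunits around a central stalk, which turns with the ring of c subunits in the membrane part, Fo. A peripheral stalk holds the head still against this rotation. Heart muscle depends on the enzyme more than most tissues, because nearly all of its ATP comes from oxidative phosphorylation.

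The transcripts described here are those of 10 nuclear genes for its subunits, taken from the array by their gene symbols. For 8 of them, 12 probe sets carried the symbol alone. A probe set combines several short probes for a transcript into 1 reading. The genes were Atp5f1a and Atp5f1b of the head, Atp5f1c, Atp5f1d and Atp5f1e of the central stalk, and Atp5pb, Atp5pf and Atp5po of the peripheral stalk. Atp5mc1 and Atp5mc2, which encode the same c subunit, had 1 probe set each, and both carried a second symbol, Atp5mc1l1 or Atp5mc2l1. Those 2 probe sets are therefore named by their identifiers only. All 14 were bright enough to be tested, among 5244 tested probe sets and 3206 genes, and none of their readings lay at the floor for dim values.

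Ventricular RNA of Fischer-344 rats, which are inbred, had been hybridised to Affymetrix rat arrays, 6 from old animals of 22 months and 5 from young animals of 4 months. The labels name no treatment, sex or transgene, and they do not say that each array came from its own animal, so p-values measure only how these samples vary among themselves, and that variation may be technical. The deposited values are linear intensities that the authors had scaled to a common level per array, with trimmed means of 500.47 to 500.96. All values here are log2 intensities, a difference is old minus young with the standard error (SE) from limma, and a difference of -1 means an intensity ratio of 0.5. Levels of different probe sets are not compared, since probes differ in brightness.

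Several arrays stood apart. Spike-in controls of bacterial and phage RNA were bright on old replicates 3 to 6 and young replicate 4 and dim on the other 6 arrays. Old replicates 3 and 4 had log2 ratios of 3.39 and 4.09 between the 3' and 5' GAPDH control probe sets, against at most 0.77 elsewhere. On old replicate 6 the 98th percentile of intensity was 4994, against 7040 or more on the other arrays. All 10 measured ventricular muscle markers, of 12 listed, read above the floor on every array, with summed intensities of 375504 to 581531 in old and 356352 to 574536 in young. The marker genes differed by a median of -0.14, 6 lower and 4 higher in old, and 10 of 10 were lower after quantile normalization (median -0.26) and 9 of 10 after median centring (median -0.43). Relative to the young mean, 5 of 6 old arrays were lower in the mean of these markers, and with single arrays left out the median ran from -0.26 (without young replicate 5) to -0.05 (without old replicate 6). The single markers ran from Ryr2 at -0.77 ± 0.59 (SE) to Actc1 at 0.42 ± 0.36. In RNA of whole tissue, fewer cells of a type and less RNA per cell cannot be told apart.

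Few of the short promoter motifs searched were shared among the members. RefSeq start sites on the rat assembly GRCr8 gave promoters for all 10 genes, each read from 250 bases before to 50 after the start. The 250 bases before the start are printed for the F1 gene with the widest age difference, for an F1 gene with an ETS match, and for 1 gene each of the c ring and the peripheral stalk with an NRF1 match. Capitals mark the core GCGCATGC of the NRF1 motif or the ETS motif CCGGAAGT on either strand. NRF1 and the ETS factor GABP are known activators of mitochondrial genes.
Atp5f1d, chr7:10214351-10214600, minus strand: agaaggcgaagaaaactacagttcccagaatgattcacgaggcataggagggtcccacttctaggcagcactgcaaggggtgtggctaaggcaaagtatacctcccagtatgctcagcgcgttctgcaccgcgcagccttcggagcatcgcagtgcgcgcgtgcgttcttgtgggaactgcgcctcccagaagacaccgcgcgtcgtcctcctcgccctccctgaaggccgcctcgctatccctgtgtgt
Atp5f1a, chr18:73567287-73567536, plus strand: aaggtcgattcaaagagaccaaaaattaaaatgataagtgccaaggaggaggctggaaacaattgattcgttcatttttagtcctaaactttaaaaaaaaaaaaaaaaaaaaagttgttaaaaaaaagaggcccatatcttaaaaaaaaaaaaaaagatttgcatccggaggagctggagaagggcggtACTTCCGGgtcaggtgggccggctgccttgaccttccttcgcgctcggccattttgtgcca
Atp5mc2, chr7:135678219-135678468, minus strand: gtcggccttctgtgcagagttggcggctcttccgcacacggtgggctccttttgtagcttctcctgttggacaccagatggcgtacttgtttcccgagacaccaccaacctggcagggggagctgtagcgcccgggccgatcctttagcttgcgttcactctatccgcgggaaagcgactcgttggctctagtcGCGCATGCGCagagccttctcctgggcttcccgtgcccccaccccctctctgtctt
Atp5po, chr11:44657484-44657733, minus strand: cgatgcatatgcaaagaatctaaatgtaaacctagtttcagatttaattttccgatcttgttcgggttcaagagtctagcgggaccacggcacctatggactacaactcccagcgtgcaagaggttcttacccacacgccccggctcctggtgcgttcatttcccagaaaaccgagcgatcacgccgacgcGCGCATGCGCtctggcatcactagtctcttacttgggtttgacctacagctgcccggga

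The NRF1 core was found in 2 of the 10 member promoters, Atp5mc2 and Atp5po, and in 2.47% of all 33469 promoters of that length. In both it began within 60 bases of the start, and matches on the 2 strands overlapped each other. The ETS motif was found in Atp5f1a alone, 61 bases before the start, against 3.81% of all promoters. The YY1 motif AAGATGGCG was found in Atp5pf alone, against 1.73%, and the ERR motif TCAAGGTCA in none of the 10, against 0.433%. The SP1 motif GGGCGG was found in 4 of 10, against 33.1%, and CCAAT in 3 of 10, against 37.5%. A TATAAA sequence was in none of the 10, against 14.2%. Both strands were searched for all 7 motifs and no match overlapped one of another motif. A match in these letters is a description of the sequence, and Atp5f1c and Atp5f1d held none of the 7.

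No ATP synthase probe set passed the test between old and young hearts. The F1 probe sets all had lower means in old, with differences of -1.06 to -0.17 on the log2 scale, and the c ring probe sets had differences of -0.79 and -0.97. The peripheral stalk probe sets lay on both sides of 0, from -0.37 to 0.20, although centring each array on its median, which moved the median of all genes by -0.29, put all 5 below 0. Of the 12 probe sets with a single symbol, 10 had a lower mean in old, where 50.6% of all tested probe sets did. Their median difference was -0.25, against -0.01 over all tested probe sets. At an adjusted p under 0.05 limma called 0 of the 12, and 0% of all tested probe sets. At an unadjusted p under 0.05, 1 of the 12 and both c ring probe sets were lower in old, against 4.12% of all tested probe sets. None of the members was higher at that level, against 3.39% of all. The adjusted p of the 14 ran from 0.537 to 0.989.

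**Figure D1:**
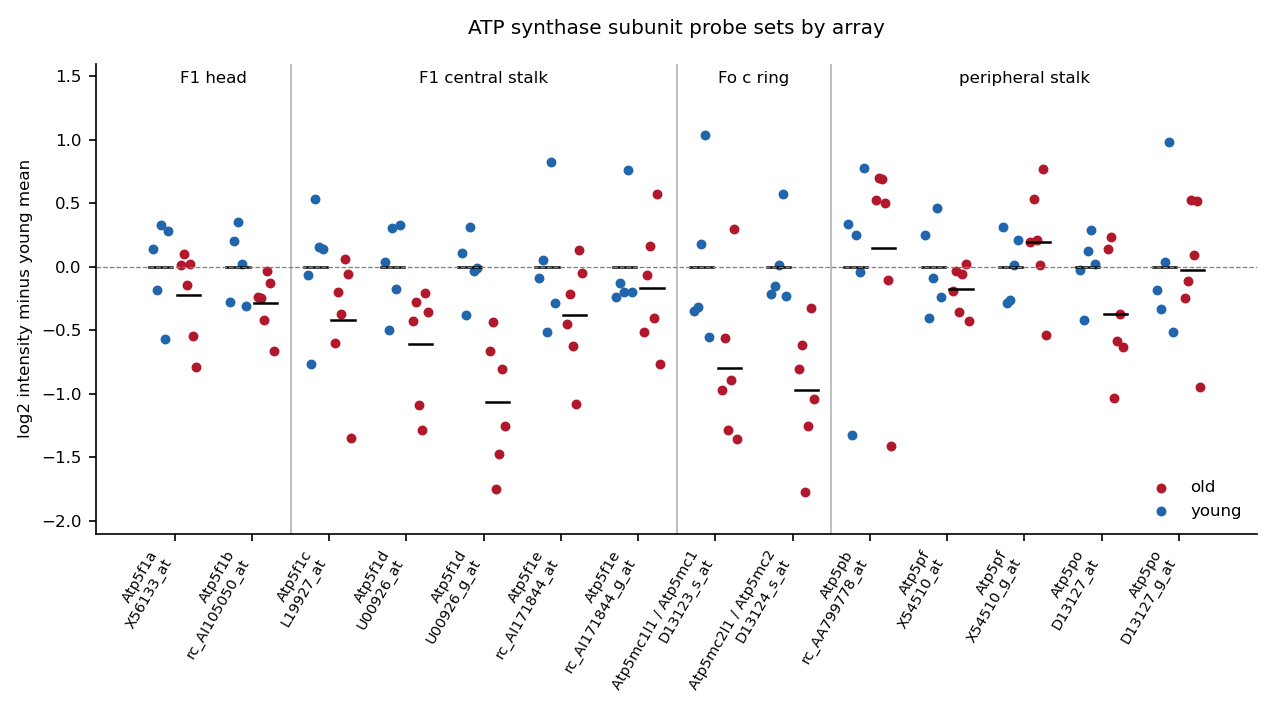
Log2 intensity of each of the 14 ATP synthase probe sets on each array (y axis), set against the mean of the 5 young arrays, with young in blue, old in red and black bars for group means. The 6 old arrays lie below all young arrays for Atp5f1d (U00926_g_at) and for D13124_s_at of the c ring, and the groups overlap for the other 12.

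In the catalytic head, Atp5f1a encodes the alpha subunit and Atp5f1b the beta subunit that carries the catalytic sites. Atp5f1a (X56133_at) read 13.14, 12.82, 13.33, 12.44 and 13.29 in young replicates 1 to 5, and from 12.22 through a median of 12.94 to 13.10 in old. The groups overlapped nearly completely, and 1 old array, replicate 6, lay below every young one. Its difference was -0.22 ± 0.28 (SE, limma adjusted p = 0.869). Blocked on spike-in brightness the difference was 0.025 ± 0.288, of the opposite sign. Atp5f1b (rc_AI105050_at) read 15.07, 15.55, 15.70, 15.37 and 15.04 in young, and from 14.69 through a median of 15.11 to 15.31 in old. The overlap was again wide, with 2 old arrays below the lowest young one, and the difference was -0.29 ± 0.29 (SE, limma adjusted p = 0.837). Both differences of the head were at most about 1 SE in size.

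The central stalk turns inside the head and couples it to the c ring. Atp5f1c (L19927_at), the gamma subunit that forms the axle, read 13.44, 12.73, 14.03, 13.65 and 13.63 in young, and from 12.15 through a median of 13.21 to 13.56 in old. The lowest old value was that of replicate 6, the other 5 old arrays lay within the young range, and the difference was -0.42 ± 0.32 (SE, limma adjusted p = 0.776). Without old replicate 6 it was -0.23, and without young replicate 2, the low young array, it was -0.61.

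Atp5f1d encodes the delta subunit at the foot of the central stalk, next to the c ring. Its probe set U00926_g_at read 12.74, 12.25, 12.94, 12.60 and 12.62 in young, and 11.97, 12.20, 10.88, 11.16, 11.83 and 11.37 in old replicates 1 to 6. Every old array was below every young one, with old replicate 2 just under the lowest young array. The difference was -1.06 ± 0.30 (SE), an old mean at 47.9% of the young one, the 13th smallest p of the table (limma unadjusted p = 0.00193, adjusted p = 0.537). This was the only one of the 12 single-symbol probe sets with separate groups, where 0.42% of tested probe sets had all old arrays below all young ones and 0.553% had them all above.

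The second Atp5f1d probe set, U00926_at, read 11.82, 11.29, 12.09, 11.61 and 12.12 in young, and from 10.51 through a median of 11.40 to 11.58 in old. Its groups overlapped, with the 2 arrays of high GAPDH ratio lowest, and it differed by -0.60 ± 0.30 (SE, limma adjusted p = 0.661). Without old replicates 3 and 4 the 2 probe sets differed by -0.79 ± 0.30 and -0.31 ± 0.30. Blocked on spike-in brightness they differed by -0.83 ± 0.31 and -0.45 ± 0.33. Within the dim arrays, where the old arrays were replicates 1 and 2, they differed by -0.55 ± 0.30 and -0.39 ± 0.32. Within the bright arrays, whose only young array is replicate 4, they differed by -1.29 and -0.56.

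Atp5f1e, the small epsilon subunit of the central stalk, gave differences of -0.17 and -0.38 in its 2 probe sets. The brighter, rc_AI171844_g_at, read 13.82, 13.93, 13.86, 14.82 and 13.86 in young, and from 13.29 through a median of 13.82 to 14.63 in old. Young replicate 4 stood alone at the top, and the groups overlapped. The difference of -0.17 ± 0.31 (SE, limma adjusted p = 0.912) turned to 0.022 without young replicate 4. The other probe set, rc_AI171844_at, read from 12.84 to 14.17 in young and from 12.27 to 13.48 in old, and differed by -0.38 ± 0.31 (SE, limma adjusted p = 0.794). Young replicate 4 was again the highest, and without it that difference was -0.17.

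The c ring is the rotor through which protons pass, and its subunit is made from several genes that differ in the import sequence removed on entry to the mitochondrion. The probe set annotated to Atp5mc2l1 and Atp5mc2, D13124_s_at, read 12.57, 12.63, 12.79, 13.36 and 12.55 in young, and 11.98, 12.16, 11.01, 11.53, 12.46 and 11.74 in old. The groups did not overlap, with old replicate 5 nearest to the young arrays. It differed by -0.97 ± 0.30 (SE, limma unadjusted p = 0.00462, adjusted p = 0.537), an old mean at 51.2% of the young one. The probe set annotated to Atp5mc1l1 and Atp5mc1, D13123_s_at, read 14.40, 14.44, 14.93, 15.79 and 14.20 in young, and 13.78, 14.19, 13.47, 13.86, 15.06 and 13.40 in old. Here 5 old arrays lay below every young one, while old replicate 5 lay above 4 of the 5 young arrays. The difference was -0.79 ± 0.36 (SE, limma unadjusted p = 0.0394, adjusted p = 0.639).

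Both c ring probe sets can read RNA from near-identical gene copies, so which copy carries the lower reading is uncertain. Their differences were -0.56 and -0.51 within the dim arrays, -1.67 and -1.84 within the bright ones, which hold 1 young array, and -0.69 and -0.65 without old replicates 3 and 4, in the order D13124_s_at and D13123_s_at. Both were lower in old under all 25 alternatives run for a single probe set. Other floors, other filters and the fit without trend could not change these differences, so their agreement was fixed in advance. The replicate block gave the same differences as leaving out old replicate 6.

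The peripheral stalk runs from the membrane along the outside of the head. Atp5pb, its b subunit, read 12.13, 10.48, 12.05, 11.75 and 12.58 in young (rc_AA799778_at), and from 10.39 through a median of 12.31 to 12.50 in old. One array of each group, young replicate 2 and old replicate 6, lay more than 1 unit below the rest. The difference was 0.15 ± 0.41 (SE, limma adjusted p = 0.949), the widest SE of the 14, and it was 0.46 without old replicate 6 and -0.18 without young replicate 2.

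Atp5pf, coupling factor 6, was read by X54510_at at 12.76, 12.10, 12.42, 12.97 and 12.27 in young, and from 12.07 through a median of 12.38 to 12.52 in old. Its other probe set, X54510_g_at, read from 11.01 to 11.60 in young and from 10.75 to 12.06 in old. Both overlapped widely, and their differences had opposite signs, -0.17 ± 0.27 and 0.20 ± 0.30 (SE, limma adjusted p = 0.897 and 0.891). Atp5po encodes OSCP, the subunit that ties the peripheral stalk to the top of the head. Its probe set D13127_g_at read 14.36, 14.21, 14.58, 15.53 and 14.03 in young, and from 13.60 through a median of 14.53 to 15.07 in old. It differed by -0.03 ± 0.35 (SE, limma adjusted p = 0.989), and it moved with single arrays, to 0.22 without young replicate 4, 0.16 without old replicate 6, 0.017 without old replicate 1 and -0.15 without young replicate 5. The other Atp5po probe set, D13127_at, read from 13.26 to 13.97 in young and from 12.65 to 13.91 in old. Old replicates 1 and 2 lay at the upper young values and the other 4 old arrays at 13.31 or lower, and the difference was -0.37 ± 0.29 (SE, limma adjusted p = 0.784).

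**Figure D2:**
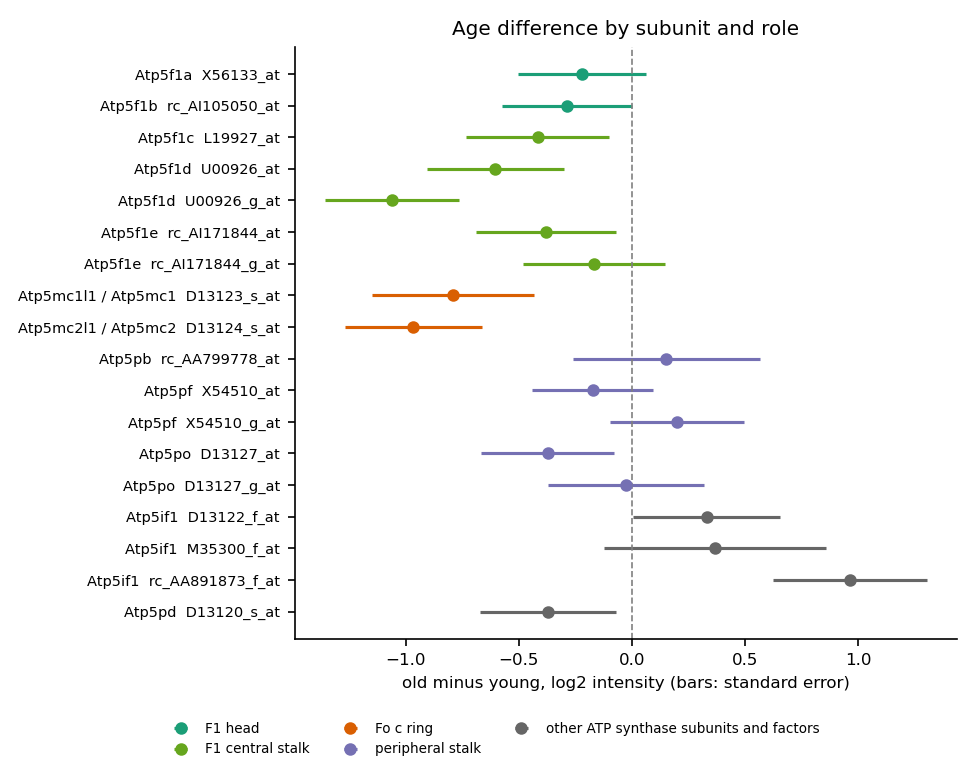
Difference in mean log2 intensity, old minus young (x axis), of each ATP synthase probe set in order of role, with bars for the standard error from limma. The central stalk and c ring probe sets lie left of 0, from -1.06 to -0.17. The member peripheral stalk probe sets lie around 0 (left of it after median centring), and Atp5pd, a further stalk subunit, lies at -0.37. The 3 tested probe sets of the inhibitor Atp5if1 lie right of 0.

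Set side by side, the 5 F1 genes had a median difference of -0.29 and the 3 peripheral stalk genes one of -0.027, each gene taken by its brightest tested probe set. Atp5pd, a further peripheral stalk gene outside the members, differed by -0.37 and is not among the 3. The gap of -0.26 was -0.30 with all probe sets of a gene averaged, and -0.11 when the c ring probe sets joined the peripheral stalk. It was -0.09 without young replicate 2, -0.12 without old replicate 3 and -0.50 without young replicate 4. Blocked on spike-in brightness, the 2 medians were -0.39 and -0.25. Relative to the young arrays, whose mean is 0 by construction, the F1 genes of the 6 old arrays averaged -0.43 ± 0.29 (SD, n = 6), while the young SD was 0.19 (n = 5). Each old array was under the young average. For the peripheral stalk genes the old arrays averaged -0.02 ± 0.45 (SD, n = 6), with a young SD of 0.42 (n = 5), and 1 old array was under the young average. That array was replicate 6, at -0.93. The young average included young replicate 2, at -0.68, and without it the old minus young difference of the stalk genes was -0.19 in place of -0.02.

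Within an array, the F1 mean minus the stalk mean was -0.43, -0.35, -0.79, -0.54, -0.34 and -0.04 in old replicates 1 to 6, and -0.20, 0.43, 0.20, -0.40 and -0.03 in young replicates 1 to 5. The groups overlapped, with 3 old arrays below the lowest young one. The F1 mean took Atp5f1d by U00926_g_at, at -1.06, and the c ring probe sets, with a mean difference of -0.88, were in neither mean. The gap between group means was -0.41. Between the dim arrays this gap was -0.49, and between the bright ones it was -0.03. Within the dim arrays all 7 F1 probe sets had lower means in old and none of the 5 member stalk probe sets did. The old arrays there were replicates 1 and 2 only, and the median of all genes was 0.085. The stalk probe sets X54510_at and D13127_g_at, at 0.0055 and 0.066, lay below that median. Atp5pd of the stalk, which is not a member, was at -0.31 there and at -0.35 within the bright arrays. Within the bright arrays 6 of 7 F1 and 4 of 5 member stalk probe sets had lower means in old. No test was made of the contrast between F1 and stalk, since the members were chosen with earlier results known. The part of the spike-in class in this contrast was not tested.

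**Figure D3:**
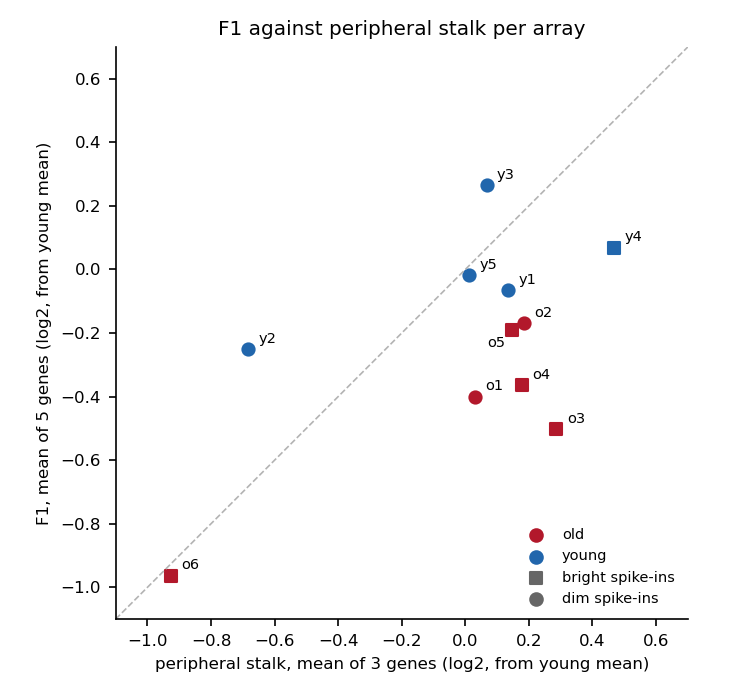
Mean log2 deviation from the young mean for the 5 F1 genes (y axis) and the 3 peripheral stalk genes (x axis), 1 point per array, squares for bright and circles for dim spike-ins, with a dashed line of equal deviation. All 6 old arrays lie below 0 on the F1 axis, and old replicate 6 lies lowest on both axes.

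For 4 genes, a pair of probe sets on the same transcript gave a check of the readings themselves. The log2 ratio of the Atp5f1d pair, U00926_g_at over U00926_at, was 0.91, 0.96, 0.85, 0.99 and 0.50 in young, and from -0.06 through a median of 0.42 to 0.68 in old. The old minus young difference of that ratio was -0.46 (exact two-sided permutation p = 0.0216, adjusted p = 0.0866 over 4 pairs), so the 2 readings of Atp5f1d differed by an amount that did not pass the adjusted test. For Atp5po the ratio of D13127_g_at over D13127_at was 2.42, 1.54 and 1.75 in old replicates 3 to 5 and 0.47 to 0.55 in the other old arrays, against 0.33 to 1.56 in young. The mean Atp5po ratio differed by 0.35 (exact two-sided permutation p = 0.424, adjusted p = 0.446), and by -0.04 without old replicates 3 and 4. For Atp5f1e the ratio differed by 0.21 (exact two-sided permutation p = 0.446, adjusted p = 0.446), with old replicates 3 and 4 highest for that gene, and for Atp5pf by 0.37 (exact two-sided permutation p = 0.102, adjusted p = 0.203).

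**Figure D4:**
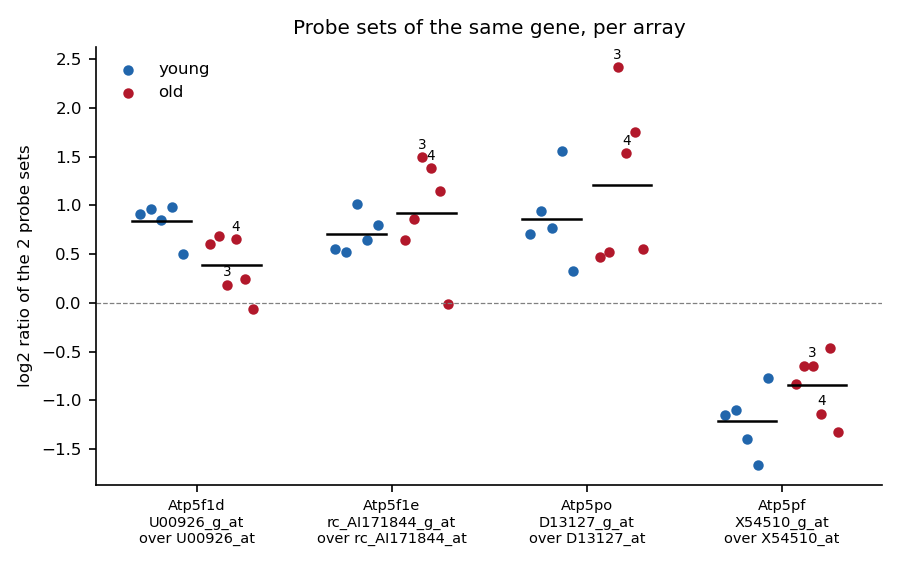
Log2 ratio of the 2 probe sets of a gene (y axis) on each array for the 4 genes with a pair, young in blue and old in red, black bars for means, and the digits 3 and 4 for the old arrays of high GAPDH ratio. For Atp5f1e and Atp5po old replicate 3 has the highest ratio, 1.50 and 2.42.

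Of 14 further subunits and factors of the enzyme, 3 had a probe set with a single symbol. Atp5if1 encodes the inhibitor that stops the enzyme from running backwards and consuming ATP. Its probe set rc_AA891873_f_at read 9.85, 9.80, 9.97, 11.43 and 9.79 in young, and from 10.71 through a median of 11.18 to 11.49 in old. Young replicate 4 lay among the old arrays, and the other 4 young arrays lay below all old ones. The difference of 0.96 ± 0.34 (SE, limma unadjusted p = 0.0104, adjusted p = 0.56) was 1.49 within the dim arrays and -0.40 within the bright ones, whose young array is that replicate. The Atp5if1 probe sets D13122_f_at and M35300_f_at differed by 0.33 ± 0.33 and 0.37 ± 0.49 and turned in the same way, at 0.97 and 0.45 within the dim and -0.94 and -0.54 within the bright arrays. The fourth, D13122_i_at, was below the filter on dim values. Atp5pd (D13120_s_at), the d subunit of the peripheral stalk, differed by -0.37 ± 0.30 (SE, limma adjusted p = 0.794). Dmac2l, a coupling factor of the enzyme, was too dim to be tested, with readings up to 8.13 and 3 arrays at the floor. The probe sets of Atp5if1 and Atp5pd whose identifiers carry f or s can read near-identical sequences, and their values are uncertain to that extent.

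The enzyme depends on carriers that bring ADP and phosphate in and take ATP out. Of 9 listed, 6 were tested, all 6 had a lower mean in old, and 0 passed, with a median difference of -0.35, which was -0.15 with 5 of 6 lower without old replicate 6. The adenine nucleotide carriers Slc25a4 and Slc25a5 differed by -0.31 ± 0.35 and -0.39 ± 0.41 (SE), and the phosphate carrier Slc25a3 by -0.19 ± 0.30. Vdac1, the outer membrane pore, differed by -0.54 ± 0.40 in its brighter probe set and by -1.81 ± 0.65 in the dimmer one (limma adjusted p = 0.771 and 0.56). In the dimmer probe set old replicate 3 read at the floor. Its difference was -1.40 without old replicates 3 and 4, and -0.95 blocked on spike-in brightness. The mitochondrial creatine kinases Ckmt2 and Ckmt1, of which Ckmt2 is the muscle form, differed by -0.14 ± 0.28 and -0.86 ± 0.67. Another Ckmt1 probe set, X59737mRNA_g_at, was below the filter on dim values and had the opposite sign, at 0.42. Within the dim or the bright arrays alone, or blocked on spike-in brightness, 4 or 5 of the 6 kept a lower mean. Among 10 listed regulators of mitochondrial genes, only the nuclear receptors Ppara and Esrra were tested, at -1.15 ± 0.60 and -0.53 ± 0.61 (SE, limma adjusted p = 0.662 and 0.859). For Ppara, old replicate 4 read at the floor. Within the dim arrays Ppara and Esrra were at -0.86 and 0.20, and within the bright ones at -1.74 and -1.01.

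The respiratory chain, which as a whole builds the proton gradient that drives the enzyme, had a lower mean in old in every tested gene under the main scaling. This held for 12 of 12 cytochrome c oxidase subunits, with a median of -0.37, from Cox8a at -0.92 ± 0.33 (SE) to Cox6c at -0.06 ± 0.34. It also held for 30 of 30 genes of complexes I to III and cytochrome c, with a median of -0.63, from Ndufb9 at -1.64 ± 0.63 to Ndufa5 at -0.05 ± 0.38. None of these genes passed the adjusted test, and 1 and 7 of them were lower at an unadjusted p under 0.05, against 118 of all 3206 genes and 4.12% of all tested probe sets. Relative to the young mean, the oxidase genes averaged -1.07 to 0.39 on the old arrays and -0.56 to 0.65 on the young ones. Those of complexes I to III and cytochrome c averaged -1.07 to -0.11 and -0.78 to 0.77. In each list 2 old arrays lay below the lowest young one. Quantile normalization left 10 of 12 and 27 of 30 lower, and the dim arrays alone gave the same counts. The oxidase median was -0.11, with 9 of 12 lower, without young replicate 4, -0.13 without old replicate 6 and -0.61 without old replicate 5, while that of complexes I to III was -0.40 without young replicate 5. The median of the 8 ATP synthase genes was -0.20, and -0.12 without old replicate 6, beside -0.01 over all 3206 genes. Its order among these lists changed with the arrays used: it was -0.17 without young replicate 4, and -0.63 in the bright arrays alone, where complexes I to III had -0.54. The vacuolar proton pump, a rotary relative that runs in the other direction, had 2 of 8 tested genes lower, with a median of 0.17, from Atp6v1b2 at -1.02 ± 0.65 to Atp6v1d at 0.44 ± 0.38. After median centring 6 of 8 were lower, and without old replicate 4 there were 4 of 8. These lists are described by counts and medians, and the differences between them were not tested.

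**Figure D5:**
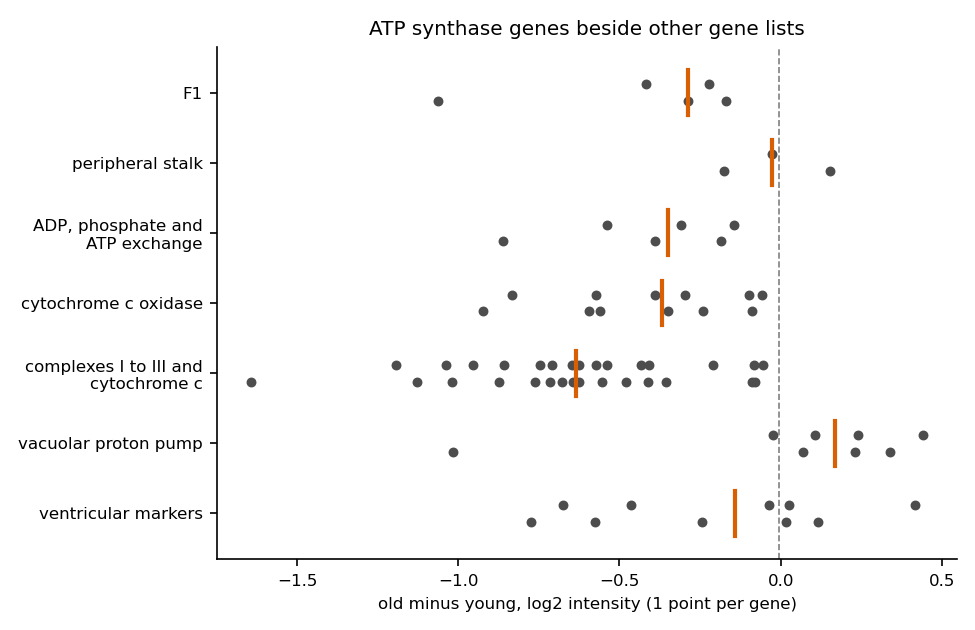
Old minus young difference in log2 intensity (x axis), 1 point per gene, for the F1 and peripheral stalk genes and for 5 other lists, with orange bars for list medians and a dashed line for the median of all genes. The medians run from -0.63 for complexes I to III and cytochrome c to 0.17 for the vacuolar proton pump.

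Markers of other cells moved between the groups too. All 4 tested smooth muscle markers had a higher mean in old, with summed intensities of 808 to 16936 in old and 679 to 2927 in young. Red cell markers were higher in 3 of 3, with sums of 18388 to 228869 in old and 1837 to 111959 in young, and atrial markers in 3 of 3, with sums of 9876 to 97376 and 3758 to 35863. Macrophage markers were higher in 2 of 3, fat cell markers in 3 of 4 and skeletal muscle markers in 3 of 4. Endothelial markers were lower in 3 of 3, with sums of 348 to 1738 in old and 1419 to 1957 in young, and fibroblast markers split 3 to 3. Without old replicates 3 and 4, 2 of the 4 smooth muscle, 1 of the 3 atrial and all 3 red cell markers were higher in old, and 2 of the 3 endothelial markers were lower, with a median of -0.13 in place of -0.81. The red cell median was 1.29, and without young replicate 4 it was 0.23 with 2 of 3 higher. None of these genes passed the adjusted test, and the part of cell makeup in the values of the ATP synthase genes was not tested.

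Over the 11 arrays, the genes whose residuals from the age group means ran most like the mean of the 8 ATP synthase genes were Nme2, Psmd1, Washc3, Rpl31 and Hsd17b10, out of 3198 ranked. Nme2 is a nucleoside diphosphate kinase, Psmd1 a proteasome subunit, Washc3 a subunit of an actin-regulating complex on endosomes, Rpl31 a ribosomal protein and Hsd17b10 a mitochondrial dehydrogenase. Pearson's r was 0.99 for Nme2, with a Spearman's rho of 0.93, and the r of the other 4 ran from 0.92 to 0.96. The arrays share their scaling, and the ranking rests partly on the 2 arrays farthest from the median, old replicate 6 and young replicate 2. Without both, r was 0.86 for Nme2, 0.57 for Psmd1, 0.76 for Washc3, 0.59 for Rpl31 and 0.72 for Hsd17b10. These likenesses were picked as the highest of many and are given without a test.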

How the data were processed

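The deposited table holds 1 linear intensity per probe set and array, scaled by the authors to a common trimmed mean. The software behind it is not given in the sources used here. From these intensities, values were raised to the 20th percentile of the table (47.4) and put on the log2 scale. Left out were 59 controls and all probe sets whose mean log2 value was under the 40th percentile (7.00). Old (n = 6) and young (n = 5) arrays were compared over the remaining 5244 probe sets by limma (3.58.1, R 4.3.3), whose eBayes step used the intensity trend, and p-values were adjusted by Benjamini-Hochberg with a threshold of 0.05. The procedure was tested on simulated data with independent noise, which held none of the differences between arrays described above. The number of arrays limits the precision: the median SE was 0.56 over all probe sets and 0.30 over the 12 members.

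The members and gene lists were chosen with earlier results of these data known. Every member probe set is named, along with the measured genes of 3 related lists, the extremes of other lists and the 5 most alike genes. Symbols came from GEO's platform annotation, and the gene numbers of all 12 matched RefSeq (GRCr8) with the symbol unchanged. A gene was represented by its brightest tested probe set. Spike-in classes were set at the widest gap in the mean of the Bio and Cre controls. The alternatives covered other floors, filters and scalings, no trend, array weights, a replicate block, spike-in class as a block and by class, no arrays of high GAPDH ratio, and each array left out. The c ring probe sets were added to the medians, and directions of members and lists counted under every setting, after the data were seen.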

Additional observations from a re-analysis of the deposited data

Results flagged for a closer look

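In 36 groups of readings examined for a sample far from the rest (14 probe sets and 4 summary values, each in old and young), 3 were found, where chance gives about 1 in 20 groups. Young replicate 4 read 14.82 for Atp5f1e (rc_AI171844_g_at), against 13.93 for the nearest young array. Old replicate 6 had a mean deviation of -0.95 over the 8 ATP synthase genes, against -0.24 for the nearest old array, and of -0.93 over the peripheral stalk genes, against 0.03. The stalk genes are among the 8, so the last is not a separate finding. Without old replicate 6, the old minus young difference in the mean of the 8 genes was -0.14 in place of -0.28, that of the F1 genes -0.33 in place of -0.43, and that of the stalk genes 0.17 in place of -0.02. Without young replicate 2 these differences were, in the same order, -0.38, -0.49 and -0.19. Old replicate 6 also had the lowest 98th percentile of intensity, and the part of this in the values given here was not tested.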

How the results depend on the processing

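No member probe set passed under any of the 25 alternatives. Over all probe sets, 0 passed except among the dim arrays alone (1), among the bright arrays alone (5) and on leaving out single arrays (0 to 2). The median over the 8 member genes was below 0 under all 27 alternatives, from -0.63 (bright arrays alone) to -0.06 (quantile normalization), against -0.20. The F1 minus stalk gap kept its sign in 26 of 27, ran from -0.50 to -0.088 with single arrays left out, and was 0.092 among the bright arrays alone. Other floors, other filters and the fit without trend could not change the median or the gap, so their agreement was fixed in advance. Median centring cannot move the gap, since it shifts all values of an array alike. The replicate block gave the same median and gap as leaving out old replicate 6. Median centring shifted the median of all genes by -0.29, quantile normalization by -0.10, the bright arrays alone by -0.19 and the dim arrays alone by 0.09. Under median centring all 12 single-symbol probe sets were lower in old, Atp5pb turning to -0.14 and Atp5pf (X54510_g_at) to -0.092. Atp5po (D13127_g_at) turned to 0.070 with quantile normalization, 0.088 with array weights, 0.066 among the dim arrays, and ran from -0.15 to 0.22 with single arrays left out. Among the dim arrays Atp5po (D13127_at) was at 0.26 and Atp5pf (X54510_at) at 0.0055. Among the bright arrays Atp5pb was at -0.037 and Atp5f1a at 0.21, and Atp5f1a was at 0.025 with spike-in class as a block. Without the arrays of high GAPDH ratio Atp5pb was at -0.070. With single arrays left out, Atp5pb ran from -0.18 to 0.46 and Atp5f1e (rc_AI171844_g_at) from -0.32 to 0.022. The causes were not tested.

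The labels give same-numbered old and young arrays no link beyond the number. The correlations of their deviations ran from -0.25 to 0.25, and 1 of 5 exceeded 0.1, which cannot decide whether they were paired. A fit with the replicate block, without old replicate 6, called 0 probe sets, and Atp5po (D13127_g_at) turned to 0.16. Leaving out old replicate 6 without the block gave the same 0.16. No member reading was at the floor, and the number of arrays limits the precision.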
